A study of Mus musculus with 4 samples.

Results

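The genes described here encode actins and the proteins that start, lengthen, cap, sever, bundle and anchor actin filaments, together with the WASP and WAVE proteins that switch filament branching on. Members were taken by gene symbol from a list of 44, with the subunits of the Arp2/3 complex left out. Of these, 43 were found among the 20207 genes of the deposited tables. Brk1, a small WAVE complex subunit, was not found under that symbol. The tables hold 6720456B07Rik, its only RefSeq synonym there, at 69.5 RPKM (reads per kilobase of transcript, scaled to sequencing depth) in wild-type and 74.6 RPKM in Brpf1-null cells, and it is not counted among the members.

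LSK cells lack lineage markers, carry Sca-1 and Kit, and include blood stem cells and multipotent progenitors. They were sorted from fetal livers of mouse embryos at E14.5 that were either wild-type or null for Brpf1, which encodes a scaffold of histone acetyltransferase complexes. Each sample pooled LSK cells from 4 embryos, about 10000 cells, and the labels describe 2 samples per genotype, arranged as 2 pairs. The sources used here do not give the allele, the strain or any Cre driver. The tables of both pairs held identical values for every gene (0 of 20207 wild-type values and 0 of 20207 Brpf1-null values differed), so they were read as 1 library per genotype, of which the pair is not known, and no difference below has a replicate check or a p-value.

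Actin filaments grow from ATP-actin monomers at their barbed ends. WASP and WAVE proteins bind the Arp2/3 complex and set off new branches, formins and Ena/VASP proteins lengthen filaments, capping proteins stop them, and cofilins cut and dismantle old ones. In blood cells this network drives migration, adhesion and phagocytosis, and several of its parts have a form made mainly in blood cells, such as WASP, HEM1, HS1 and coronin-1A.

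Depth, recovered from the spacing of low RPKM values, came to about 23651953 reads (wild-type) and 22223600 reads (Brpf1-null). Bracketed ranges are 95% counting intervals (exact Clopper-Pearson) of a ratio. They cover counting error only, not the spread between embryos or pools, and treat PCR copies as independent molecules. The targeted gene, Brpf1, had 2.59 RPKM in wild-type and 2.15 RPKM in Brpf1-null cells, a ratio of 0.833 (0.698 to 0.993). These values are summed over the whole gene, so reads outside any deleted part would still count. They do not by themselves show the loss of Brpf1. Of the genes that define the gate, Kit was at 25.6 and 21.3 RPKM and Ly6a (Sca-1) at 10.6 and 9.51 RPKM. All 10 measured hepatocyte markers and all 10 measured erythroid markers were lower by 1.5-fold or more in Brpf1-null cells, with summed levels of 2037 against 525 RPKM and 630 against 100.2 RPKM.

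Most members differed little between the libraries. The 7 that were higher by 1.5-fold or more in Brpf1-null cells were Hcls1, Flna, Twf2, Capg, Evl, Coro1b and Nckap1l, and the 2 lower by 1.5-fold or more were Dstn and Capza1. Hcls1, which encodes the blood-cell cortactin homolog HS1, stood furthest from the rest at 5.74-fold higher, while the other 6 were 1.83-fold to 1.99-fold higher. Of the 43 members, 39 had a mean of at least 1 RPKM and were counted, and 30 of these lay within 1.5-fold on the log2(RPKM + 1) scale. The scale understates the change of low genes.

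Over all 9380 genes with that mean, 14.1% were higher by 1.5-fold or more in Brpf1-null cells and 9.42% were lower by that much. Among the 39 counted members, 17.9% were higher and 5.13% lower by that much, shares near the background on the deposited scaling. The members' median log2 difference was 0.15, beside 0.04 over all genes. Centring each library on its median moved the median over all genes to −0.07 and the share of higher genes among all those past 1.5-fold from 59.9% to 44.4%, and the members' median to 0.04. The same 7 members were higher and the same 2 lower by 1.5-fold after this centring, while the shares over all genes became 10.2% higher and 12.8% lower.

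**Figure D1:**
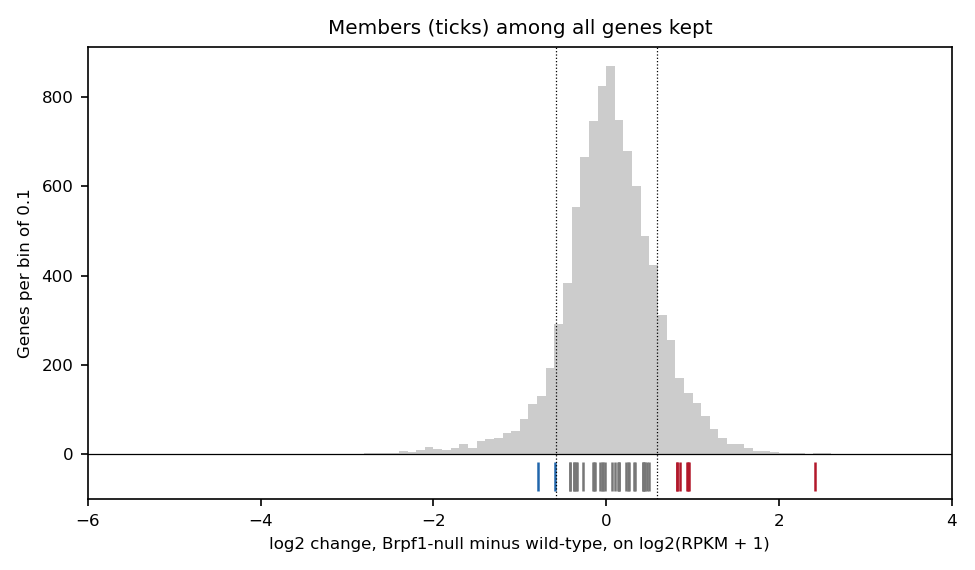
Histogram of the log2 difference (Brpf1-null minus wild-type, on log2(RPKM + 1)) of the 9380 genes kept, as genes per bin of 0.1, with a tick below the axis for each of the 39 members kept. Dotted lines mark 1.5-fold. The 7 red ticks are the higher members, with Hcls1 far to the right at 2.41, and the 2 blue ticks are the lower members.

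The members ranged widely in level. Of the 43, 12 were at 100 RPKM or more in both libraries, and together the members made up 2.48% of the summed RPKM in wild-type and 2.77% in Brpf1-null cells. Actb ranked 3 in the wild-type and 2 in Brpf1-null cells among all genes. The order of the 39 counted members was much the same in both (Spearman rho = 0.958 across members, which are not replicates).

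**Figure D2:**
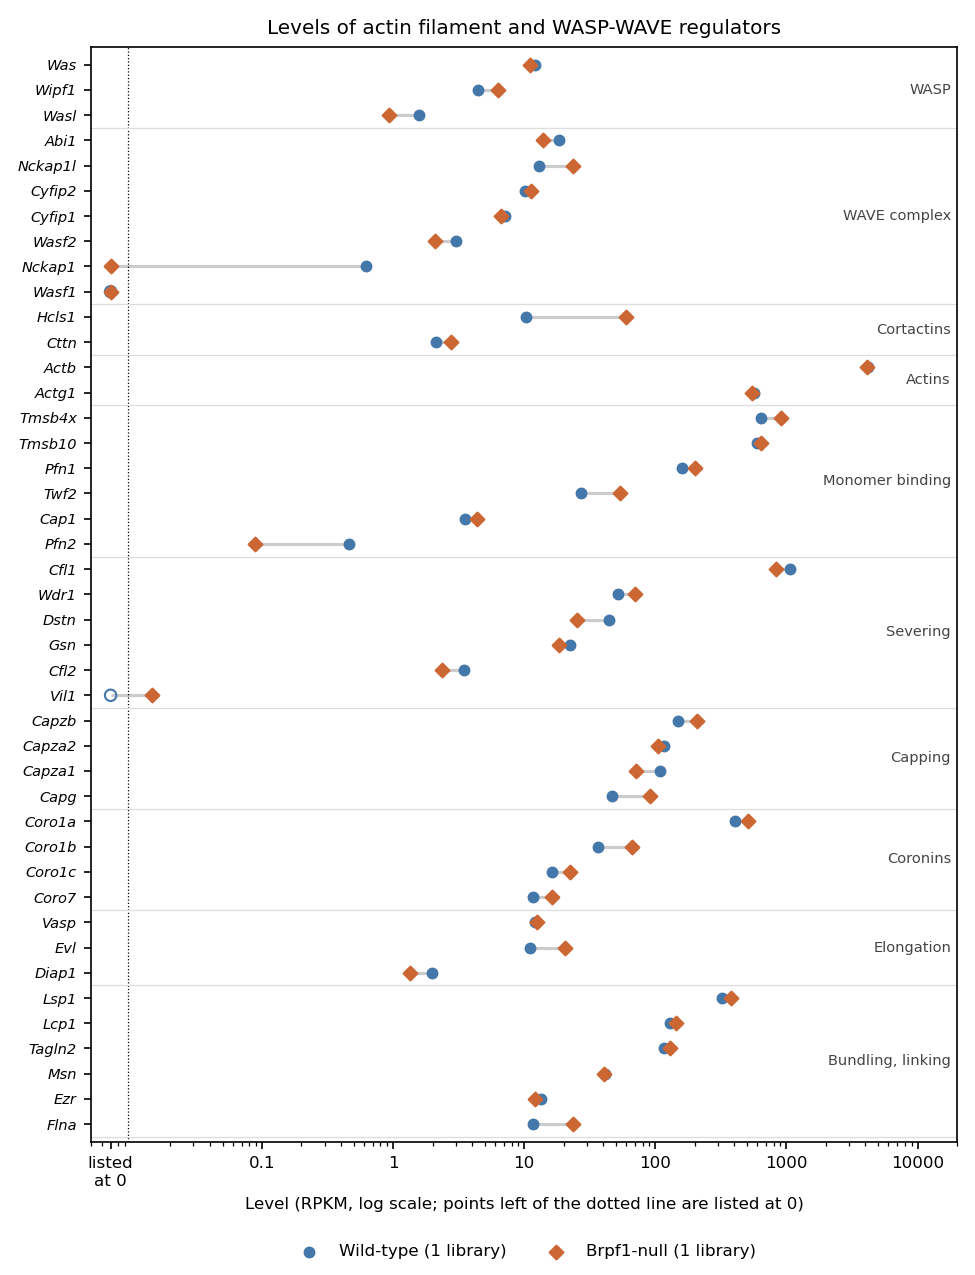
RPKM (log scale) of the 43 members in wild-type cells (blue circles) and the Brpf1-null library (orange diamonds), grouped by role; 1 library per genotype. Symbols left of the dotted line are listed at 0. Actb lies at 4169 and 4122 RPKM, and the widest gap among members counted is that of Hcls1, from 10.4 to 59.6 RPKM.

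Promoter sequence upstream of 4 members is shown because they span the pattern: Hcls1 and Flna are the higher members with the widest ratios of RPKM, Dstn is the lower member with the widest one, and Actg1 was level and, among counted members with a promoter entry, is the 1 with a CArG box, the site of serum response factor. The sequences are from RefSeq on build GRCm38.p6, whereas the reads were aligned to mm9. Each run is the part of the 250 bases before the start that lies outside every annotated exon, 5′ to 3′ on the gene's strand, with GGGCGG (either strand) and the CArG box in capitals.
Hcls1, chr16:36934733-36934982, plus strand: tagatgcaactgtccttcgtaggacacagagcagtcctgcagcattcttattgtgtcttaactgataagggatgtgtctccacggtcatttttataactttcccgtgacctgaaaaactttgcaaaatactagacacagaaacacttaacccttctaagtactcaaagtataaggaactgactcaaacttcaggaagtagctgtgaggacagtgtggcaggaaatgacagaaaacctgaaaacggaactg
Flna, chrX:74246556-74246784, minus strand: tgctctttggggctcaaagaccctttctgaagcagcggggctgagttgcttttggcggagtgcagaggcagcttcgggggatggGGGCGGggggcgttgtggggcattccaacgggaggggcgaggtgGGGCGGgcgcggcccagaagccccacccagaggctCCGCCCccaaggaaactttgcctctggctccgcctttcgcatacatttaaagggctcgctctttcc
Dstn, chr2:143915081-143915319, plus strand: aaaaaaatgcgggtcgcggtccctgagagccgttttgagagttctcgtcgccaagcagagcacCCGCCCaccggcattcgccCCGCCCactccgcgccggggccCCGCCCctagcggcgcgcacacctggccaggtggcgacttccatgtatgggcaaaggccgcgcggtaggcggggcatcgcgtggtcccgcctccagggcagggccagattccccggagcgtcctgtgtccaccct
Actg1, chr11:120348543-120348677, minus strand: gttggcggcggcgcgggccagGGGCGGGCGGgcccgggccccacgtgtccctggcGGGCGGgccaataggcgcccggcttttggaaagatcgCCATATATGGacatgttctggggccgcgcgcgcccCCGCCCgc

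The Hcls1 run held none of these motifs and was 41.6% G and C, beside 64.6% for Flna, 69.9% for Dstn and 76.3% for Actg1. GGGCGG occurred 3 times in the Flna run, 3 times in the Dstn run and 4 times in the Actg1 run, of which 2 overlap. The CArG box of Actg1 lay 90 to 81 bases before the start. Promoter entries were matched for 34 members. A CArG box was present before the start of 2 of them, Actg1 and Vil1 (5.88%), against 1.62% of all 27025 genes with an entry. GGGCGG was present in 23 members (67.6%) against 35.4% of all genes, and the ETS-type site CCGGAAG in 8 (23.5%) against 7.83%, both searched on either strand. By change, GGGCGG was in 2 of the 4 higher members with an entry, 1 of the 2 lower and 17 of the 25 within 1.5-fold, and CCGGAAG in 0 of 4, 0 of 2 and 7 of 25. These are letter matches in a fixed window and are given as a description. The all-gene shares cover every gene with an entry, expressed in these cells or not. Shares over only the genes kept were not computed.

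Among the factors that activate the Arp2/3 complex, the cortactin family differed most. Hcls1 binds Arp2/3 and filamentous actin downstream of antigen and growth factor receptors. It reached 10.4 RPKM in wild-type and 59.6 RPKM in Brpf1-null cells, from about 495 and 2671 reads, 5.74-fold higher (5.22 to 6.33). Cttn, the widely expressed cortactin, was at 2.14 and 2.76 RPKM, a ratio of 1.29 with an interval that excluded 1. Hcls1 thus made up 82.9% of the family's summed RPKM in wild-type cells and 95.6% in Brpf1-null cells.

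WASP and its partners stayed within 1.5-fold on the log2(RPKM + 1) scale. Was, which encodes the blood-cell WASP that is switched on by Cdc42, reached 12.2 RPKM in wild-type and 11.1 RPKM in Brpf1-null cells, and its ratio of 0.908 had an interval that included 1 (0.805 to 1.02). Wasl, which encodes the broadly expressed N-WASP, was at 1.58 and 0.929 RPKM from about 162 and 90 reads. Its RPKM ratio of 0.588 is past 1.5-fold, but with 1 RPKM added its log2 difference was −0.42, and with 0.1 RPKM added it was −0.71, past 1.5-fold. Wipf1, which encodes the WASP-stabilising partner WIP, was at 4.44 and 6.32 RPKM, a ratio of 1.42 (1.26 to 1.60).

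The WAVE complex carries Rac signals to Arp2/3 through its subunits. Of its 5 counted subunit genes, the HEM subunit gene Nckap1l was higher in Brpf1-null cells and the other 4 stayed within 1.5-fold. Nckap1l, which encodes the blood-cell form HEM1, reached 13.0 RPKM in wild-type and 23.7 RPKM in Brpf1-null cells, from about 1448 and 2491 reads, 1.83-fold higher (1.72 to 1.95). Nckap1, the form of other tissues, was at 0.624 RPKM in wild-type cells and listed at 0 in Brpf1-null cells. Of the Rac-binding subunits, Cyfip1 was at 7.11 and 6.69 RPKM and Cyfip2 at 10.1 and 11.4 RPKM, so that Cyfip2 held 58.7% and 62.9% of their sum. Abi1, the adaptor subunit, was at 18.4 and 14.0 RPKM, a ratio of 0.760 (0.701 to 0.822). Wasf2, which encodes WAVE2, was at 3.01 and 2.10 RPKM, and Wasf1 was listed at 0 in both libraries. The ratio of Wasf2 was 0.699 (0.596 to 0.818). Of the 7 subunit genes found, 5 were counted.

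The actins themselves were level. Actb reached 4169 RPKM in wild-type and 4122 RPKM in Brpf1-null cells, and Actg1 at 564 and 547 RPKM. Their log2 differences of −0.016 and −0.045 became 0.15 and 0.027 after quantile normalization. After centring they were −0.13 and −0.16, and without the GC trend −0.073 and −0.14. Actb made up 88.1% and 88.3% of the sum of both. In GENCODE M21 transcripts, 56.7% of the 50-base stretches of Actg1 and 14.2% of those of Actb also occur in another gene, so these values are uncertain where the authors' counting could split reads.

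Of the proteins that hold actin monomers, those counted were all above 0 in log2 difference, with 1 past 1.5-fold. Twf2, which encodes the monomer-binding and barbed-end-binding protein twinfilin-2, reached 27.1 RPKM in wild-type and 53.8 RPKM in Brpf1-null cells, 1.99-fold higher (1.84 to 2.14). Tmsb4x, which encodes the main monomer-sequestering thymosin, was at 645 and 911 RPKM, a ratio of 1.41 (1.38 to 1.45), and it passed 1.5-fold only after quantile normalization, at a log2 difference of 0.70. Tmsb10 was at 595 and 639 RPKM, a log2 difference of 0.10 that became −0.0075 on centring and −0.11 once a trend on GC content was taken out, and 43.5% of its 50-base stretches occur in other genes. Pfn1, which feeds monomers to growing ends, was at 159 and 201 RPKM, a ratio of 1.27 (1.21 to 1.33). Cap1, which recycles monomers from cofilin, was at 3.52 and 4.36 RPKM. Pfn2 was not counted, at 0.461 and 0.0891 RPKM from about 26 and 5 reads. Profilins, thymosins, Cap1 and Twf2 summed to 1429 and 1809 RPKM, a ratio of 1.27.

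Of the 3 cofilin-family genes, Dstn was lower by 1.5-fold or more. Dstn, which encodes destrin (ADF), reached 44.2 RPKM in wild-type and 25.2 RPKM in Brpf1-null cells, from about 1998 and 1069 reads, 1.76-fold lower (1.63 to 1.89). Cfl1, the main cofilin of blood cells, was at 1062 and 839 RPKM, a ratio of 0.790 with an interval that excluded 1, and its log2 difference of −0.34 became −0.11 after quantile normalization. Cfl2 was at 3.50 and 2.36 RPKM, a ratio of 0.674 (0.548 to 0.829). The log2 difference of Cfl2, −0.42, became −0.13 without the GC trend. Cfl1 and Cfl2 lay within 1.5-fold, and all 3 had a counting interval below 1. Wdr1, whose product AIP1 helps cofilin to dismantle filaments, was instead at 51.5 and 69.8 RPKM, with an interval of 1.30 to 1.41 for the ratio. Summed actin RPKM was 4.27 times the cofilin-family sum in wild-type cells and 5.39 times in Brpf1-null cells.

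Gelsolin-family and capping genes were split. Capg, which encodes a barbed-end capper abundant in macrophages, reached 46.6 RPKM in wild-type and 90.6 RPKM in Brpf1-null cells, 1.95-fold higher (1.83 to 2.07). Gsn, which encodes the calcium-dependent severing protein gelsolin, was at 22.4 and 18.4 RPKM, a ratio of 0.821 (0.758 to 0.889). Within their sum, Capg went from 67.6% to 83.1%. Vil1, the epithelial villin, was listed at 0 in wild-type cells and at 0.0144 RPKM in Brpf1-null cells, about 1 read.

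CapZ, the general barbed-end capper, is a dimer of an alpha and a beta chain. Capza1 reached 108 RPKM in wild-type and 71.6 RPKM in Brpf1-null cells, 1.51-fold lower (1.46 to 1.57), just past the threshold. Capza2 was at 117 and 105 RPKM, a log2 difference of −0.15 that became 0.085 without the GC trend. The beta chain gene Capzb was at 148 and 206 RPKM, a ratio of 1.39 (1.34 to 1.44). The ratio of Capzb to both alpha chains was therefore 0.658 in wild-type and 1.17 in Brpf1-null cells. Capza1 lay back within 1.5-fold without the GC trend (log2 difference −0.44), after quantile normalization (−0.56) and with a pseudocount of 5 RPKM (−0.56). In addition, 73.8% of its 50-base stretches occur in transcripts of 3 other annotated genes.

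Coronins, which bring Arp2/3 and cofilin together at filaments, were higher in log2 difference in all 4 members, as deposited and under each of the 3 other scalings. Only Coro1b passed 1.5-fold, at 36.5 RPKM in wild-type and 66.9 RPKM in Brpf1-null cells, 1.83-fold higher (1.72 to 1.95). A share of 20.8% of its 50-base stretches occurs in another annotated gene. Coro1a, the blood-cell coronin, was at 408 and 511 RPKM, a ratio of 1.25 (1.22 to 1.28). Coro1c was at 16.3 and 22.5 RPKM, and Coro7, a coronin of the Golgi, at 11.6 and 16.3 RPKM. Their summed RPKM was 473 and 616, a ratio of 1.30.

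Of the elongation factors, Evl stood apart from its paralog. Evl reached 11.1 RPKM in wild-type and 20.4 RPKM in Brpf1-null cells, from about 573 and 990 reads, 1.84-fold higher (1.66 to 2.04). Vasp, at 12.0 and 12.6 RPKM, had an interval that included 1 (0.936 to 1.17), and its log2 difference of 0.062 became −0.049 on centring, −0.0076 after quantile normalization and −0.15 without the GC trend. The share of Evl in their sum was 48.1% and 61.9%. Diap1 (Diaph1), which encodes the formin mDia1, was at 1.97 and 1.34 RPKM, a ratio of 0.678 (0.556 to 0.824).

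Among bundling and membrane-linking genes, Flna was higher and the other 5 lay within 1.5-fold. Flna, which encodes the crosslinker filamin A, reached 11.7 RPKM in wild-type and 23.4 RPKM in Brpf1-null cells, from about 2315 and 4340 reads, 1.99-fold higher (1.90 to 2.10). Lcp1, which encodes the leukocyte bundling protein L-plastin, was at 129 and 144 RPKM, and Lsp1, a leukocyte filament-binding protein gene, at 322 and 378 RPKM. Tagln2 was at 117 and 129 RPKM, a log2 difference of 0.14 that became −0.067 without the GC trend. The membrane linkers moesin and ezrin were close to level: Msn was at 41.7 and 40.6 RPKM, with an interval that included 1, and Ezr at 13.3 and 12.0 RPKM, a ratio of 0.899 (0.819 to 0.986).

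**Figure D3:**
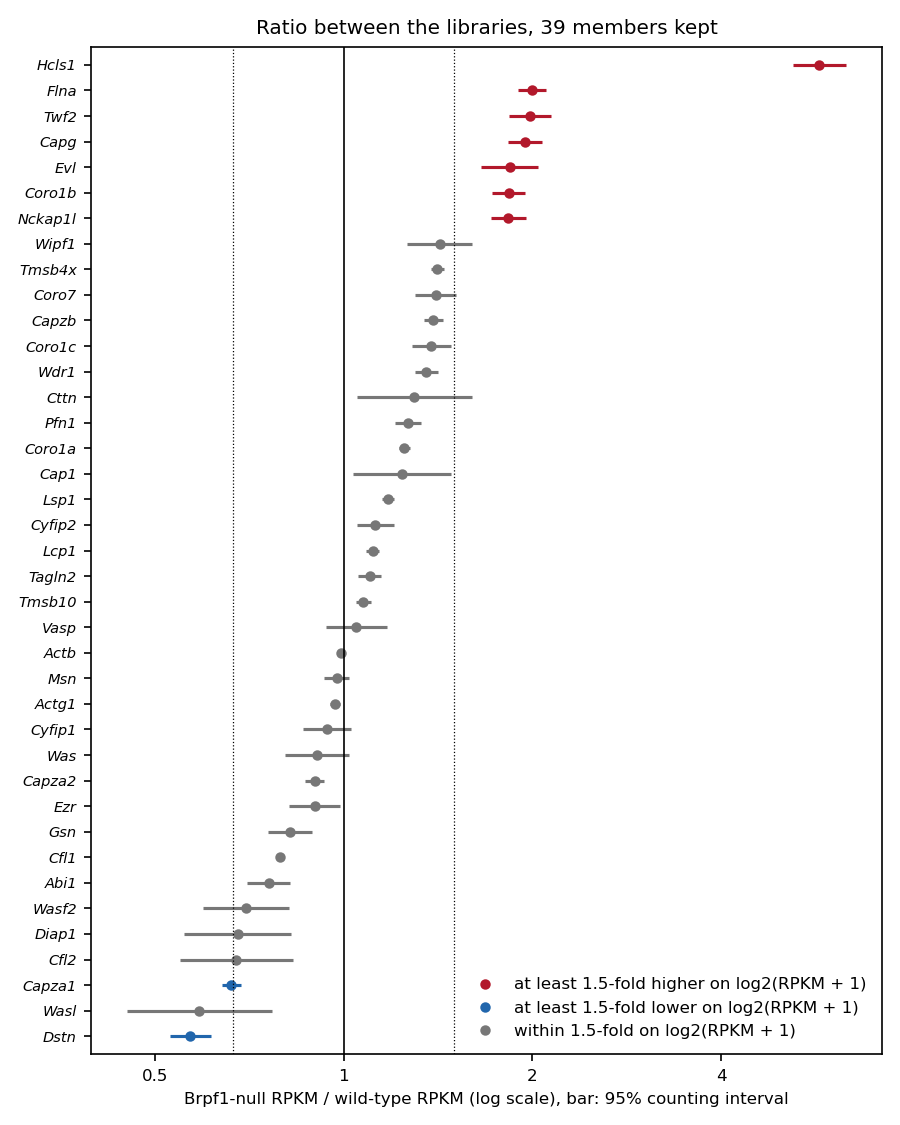
Ratio of Brpf1-null to wild-type RPKM (log scale) for the 39 members kept, sorted, with bars for the 95% counting interval and dotted lines at 1.5-fold. Colours follow the log2(RPKM + 1) scale, so Wasl, at 0.588, is grey. Hcls1 lies alone at 5.74, and 6 members lie between 1.83 and 1.99.

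Counting error alone was small beside many of these differences. For 35 of the 39 counted members the interval excluded 1, with 22 ratios above 1 and 13 below, and it included 1 for the other 4, Was, Cyfip1, Vasp and Msn. At these depths the interval excludes 1 even for Actb, at a ratio of 0.989, so it does not mark a difference between genotypes.

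**Figure D4:**
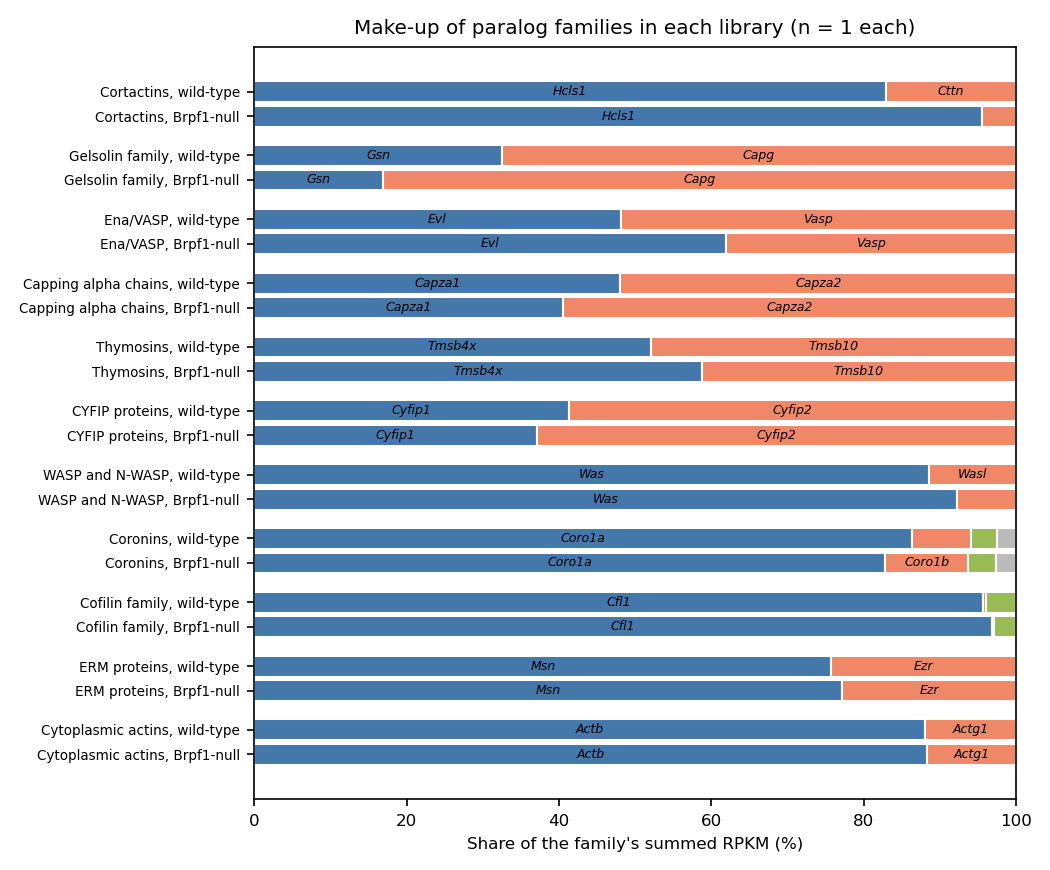
Share (%) of each paralog in the summed RPKM of its family, in the wild-type and Brpf1-null libraries (1 library each). Unlabelled segments are Cttn and Wasl in Brpf1-null cells, then, in order, Coro1b (wild-type only), Coro1c and Coro7 for the coronins, and Cfl2 and Dstn for the cofilins; Vil1, of the gelsolin family, is too small to see. Hcls1 goes from 82.9% to 95.6%, Capg from 67.6% to 83.1% and Evl from 48.1% to 61.9%, while Actb is at 88.1% and 88.3%.

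The higher and lower members also differed in base composition. Transcript GC content was 49.0% to 61.0% in the 7 higher members (median 56.9%) and 43.0% and 45.6% in the 2 lower ones, beside a median of 50.2% over all genes kept. Over the 39 counted members the log2 difference had a Spearman rho of 0.503 and a Pearson r of 0.485 with GC content, and over 9258 genes a Spearman rho of 0.290. All these points share the same 2 libraries. After the trend on GC content was removed, the 7 higher members had log2 differences of 0.61 to 2.22 and all stayed past 1.5-fold, while Dstn stayed lower at −0.71.

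**Figure D5:**
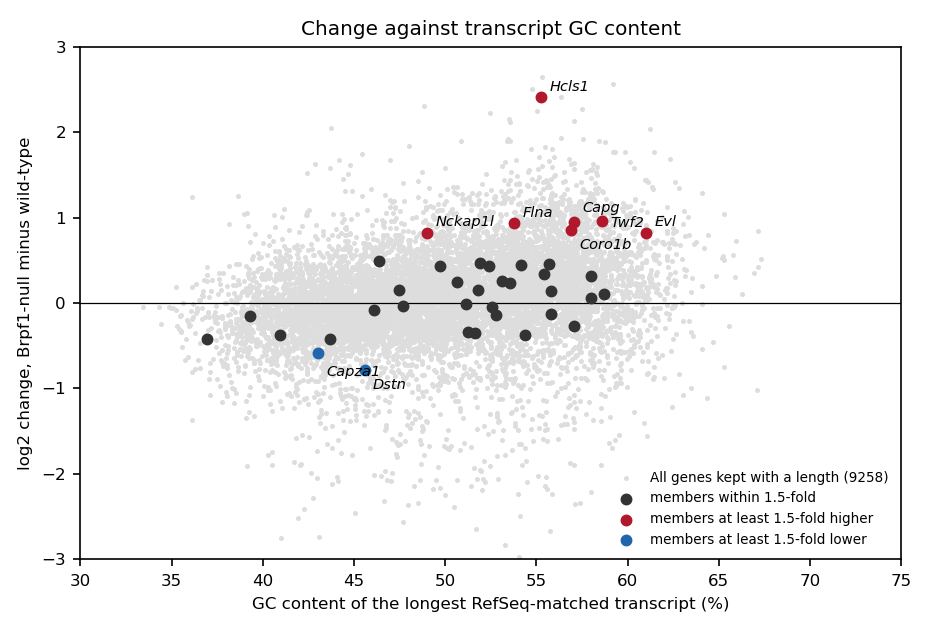
Log2 change (Brpf1-null minus wild-type) against transcript GC content (%) for 9258 genes (grey; 5 lie outside the axes) and the 39 members kept. The 7 higher members (red) lie at 49.0% GC or more and the 2 lower members (blue) at 45.6% or less.

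Was, Flna, Msn and Tmsb4x, 4 members in all, are X-linked. The embryos' sexes could differ between the pools. Xist, made from the inactive X chromosome, reached 0.319 RPKM in wild-type and 0.781 RPKM in Brpf1-null cells, and the Y-linked gene Ddx3y at 5.87 and 1.65 RPKM. Among the 281 X-linked genes kept, 29 (10.3%) were higher by 1.5-fold or more and 32 were lower by that much, beside 14.1% and 9.42% over all genes, and the median log2 difference was −0.06. Their part in the levels of Flna and Tmsb4x was not tested.

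Because the samples are bulk RNA, fewer cells of a type and less RNA per cell cannot be told apart. Several members are strongly expressed in monocytes and macrophages, whose markers went both ways. Of 11 counted markers, 5 were higher by 1.5-fold or more in Brpf1-null cells, among them Csf1r at 8.31 and 28.8 RPKM and Irf8 at 9.24 and 32.6 RPKM. The 4 that were at least 1.5-fold lower were the macrophage genes Vcam1, Timd4, Cd5l and C1qa. The summed level of the whole list was 194 and 285 RPKM, and 0 of its 12 measured markers were listed at 0 in either library. Of 8 counted neutrophil markers, 1 was higher (Mpo, at 351 and 570 RPKM) and 4 were lower (Ngp, Camp, S100a8 and S100a9). Their median log2 difference was −0.42. The whole neutrophil list summed to 664 and 847 RPKM, with Mpo the largest part in both libraries. For megakaryocytes, 3 of 4 counted markers were lower, and for B-lineage cells 7 of 7, with Pax5 listed at 0 in both libraries. Stromal and smooth muscle markers summed to 9.34 and 5.22 RPKM, with Pdgfra listed at 0 in both. Of the 11 counted genes of the LSK list, 1 was higher (Cd34, at 117 and 179 RPKM) and 3 were lower (Meis1, Hoxa9 and Mecom). In log2 difference, 9 of the 11 were below 0, with a median of −0.41. The whole LSK list summed to 405 and 388 RPKM. The mast cell list had 1 of 4 higher and 2 lower, the T and NK cell list 1 of 2 higher, and the endothelial list 1 of 5 higher and 1 lower. The part of these cell types in the members' levels was not tested.

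Beyond the members, 191 other genes of actin control from 10 lists were found, and 127 had a mean of at least 1 RPKM. Of these, 27 (21.3%) were higher by 1.5-fold or more in Brpf1-null cells and 3 (2.36%) were lower, beside 14.1% and 9.42% over all genes. After centring, 21 of the 127 were higher and 6 lower, beside 10.2% and 12.8% over all genes. Without the GC trend 18 of the 127 were higher and 3 lower, beside 11.8% and 9.54% over all genes. When genes had to average 5 RPKM, 18 of a smaller number tested were higher, beside 14.3% over all genes. The median log2 difference of the 127 was 0.18. These lists were chosen with earlier results of these data known, so the shares are a description only.

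WASP and WAVE partners outside the members had 4 of 12 counted genes higher and 1 lower. Pstpip1, which encodes an adaptor that binds WASP, reached 14.3 RPKM in wild-type and 32.5 RPKM in Brpf1-null cells, 2.27-fold higher (2.06 to 2.50). The adaptor gene Nck1, which links receptors to WASP, stood at 11.2 RPKM against 6.81, which is 1.64-fold lower (1.49 to 1.80), but lay within 1.5-fold without the GC trend (log2 difference −0.40) and with a pseudocount of 5 RPKM (−0.45). The other 3 higher genes were picked out after their values were known: Wipf2 was at 1.67 and 3.07 RPKM, the ABI1 relative Abi3 at 2.00 and 3.97 RPKM, and Trip10 at 1.59 and 3.88 RPKM. Without the GC trend Wipf2 (0.55) and Abi3 (0.52) lay within 1.5-fold. Of the Arp2/3 subunits themselves, 1 of 9 counted was higher: Arpc1b, at 89.5 and 424 RPKM.

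Of the 28 counted exchange factors, GTPase-activating proteins and inhibitors, 7 were higher and 1 was lower. Vav1, the Rac exchange factor of blood cells, was at 15.4 and 27.7 RPKM, 1.80-fold higher (1.67 to 1.95). Dock8, a Cdc42 exchange factor, was at 1.19 and 3.99 RPKM (picked out after its value was known). Dock10 was 2.33-fold higher (2.09 to 2.60) and Arhgap4 2.27-fold higher (2.05 to 2.52). Racgap1 and Ect2, which act together in cytokinesis, differed in direction: Racgap1 was at 4.34 and 8.66 RPKM, and Ect2, the 1 lower gene (picked out after its value was known), at 5.20 and 3.08 RPKM. Ect2 lay within 1.5-fold without the GC trend (−0.39) and with a pseudocount of 5 RPKM, under which 0 pathway genes were lower. Racgap1 (0.55) and Dock10 (0.57) also lay within 1.5-fold with that pseudocount. Dock8, like the other higher genes picked out after their values were known, was not given a value with that pseudocount. Among 10 counted kinases and phosphatases that act on cofilin and myosin, Pak1 was the 1 higher gene, at 15.4 and 26.6 RPKM.

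Of 11 counted myosin genes, 4 were higher and 0 were lower. Myo1g, a class I myosin of blood cells, reached 13.5 RPKM in wild-type and 33.8 RPKM in Brpf1-null cells, 2.50-fold higher (2.33 to 2.69), and its relative Myo1f was 1.58-fold higher (1.47 to 1.70). Myo18a was 2.75-fold (2.47 to 3.06) and Myo7a 1.92-fold higher (1.75 to 2.10). Myo1f lay within 1.5-fold on centring (0.51), after quantile normalization (0.58), without the GC trend (0.47) and with a pseudocount of 5 RPKM (0.51), and Myo7a in the last pair of settings (0.58 and 0.49). The 2 higher formins of 5 counted were Fmnl1, the leukocyte formin, at 12.3 and 23.4 RPKM, and Inf2 (listed as 2610204M08Rik, picked out after its value was known) at 1.48 and 3.42 RPKM.

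Among crosslinker and tropomyosin genes, 2 of 17 counted (11.8%) were higher and 0 were lower. Of these, Tln1, which encodes the integrin linker talin, was at 12.3 and 23.7 RPKM, 1.92-fold higher (1.83 to 2.02). Of 17 other turnover genes, 3 were higher. Coro2a was at 8.85 and 19.7 RPKM, Flii, a gelsolin relative, at 10.4 and 16.4 RPKM, and Aif1, a macrophage actin-bundling protein gene, at 4.93 and 10.2 RPKM. Flii lay within 1.5-fold on centring (0.50), after quantile normalization (0.56), without the GC trend (0.40) and with a pseudocount of 5 RPKM (0.47). The 1 lower gene was Tmod1, the pointed-end capper of the red cell skeleton, at 2.65 and 0.439 RPKM (picked out after its value was known). Tmod1 lay within 1.5-fold with a pseudocount of 5 RPKM, under which 0 pathway genes were lower. The erythroid markers were lower too, and the part of erythroid cells in the level of Tmod1 was not tested. Srf, which encodes serum response factor, was at 2.69 and 5.41 RPKM, 2.01-fold higher (1.66 to 2.44), from about 166 and 314 reads. It was the 1 higher gene of 4 counted in its list, and it lay within 1.5-fold without the GC trend (0.57) and with a pseudocount of 5 RPKM (0.44).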

How the data were processed

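RNA of LSK cells from wild-type and Brpf1-null fetal livers was sequenced from oligo-dT-primed libraries. Reads were aligned with TopHat to mm9, per the submitters' processing notes; the sources used here name no version, annotation or counting program. Per the file headers, the authors deposited RPKM values for pair 1 and FPKM values for pair 2, with a fold (ratio) and its log2. All 12624 deposited fold ratios equalled wild-type over Brpf1-null within a relative 0.001, the reverse of the direction used here, and were not used further. Both tables hold the same values, so the planned limma test was replaced by the planned description of 1 library per genotype. Samples were grouped by title.

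Changes are log2(RPKM + 1) differences; ratios carry no pseudocount. A gene was kept if its mean over both libraries reached 1 RPKM (9380 of 20207). Library sizes were fitted so that values of up to 6 reads, in genes whose transcripts share 1 length, were whole within 0.1 read (67.5% of 864 wild-type and 72.1% of 899 Brpf1-null values, against 29.6% and 32.8% with sizes 5% larger). Read numbers use the longest RefSeq-matched GENCODE M21 transcript (98.1% of genes had a length) and are approximate. That build is GRCm38, so it served for lengths, GC content and names. The GC trend is a lowess fit with a span of 0.3 (statsmodels 0.14.6, SciPy 1.17.1, Python 3.11.15). The steps were tested on simulated data.

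Every member found is named; other pathway genes are named where past 1.5-fold and at 5 RPKM or more in 1 library, the 4 widest differences per list, and others are marked. Members and lists were chosen with earlier results of these data known. Alternatives were the pseudocount, the filter, the scaling and the threshold. Some pathway results are not reported here.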

Additional observations from a re-analysis of the deposited data

How the results depend on the processing

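No paired analysis was possible because the tables of both pairs hold the same values, which also means that no replicate could be left out. The members' median log2 change stayed positive under every alternative, from 0.04 after centring to 0.17 after quantile normalization. Over all genes the median was −0.07 after centring and 0.005 after quantile normalization. Under the other settings it lay from 0 (no filter) to 0.05 (pseudocount of 0.1 RPKM), so a positive sign was not particular to the members. The same 7 higher members stayed past 1.5-fold with both other pseudocounts, both other filters and all 3 scalings, with Tmsb4x added by quantile normalization (8). These are counts of 39 members, 43 without a filter and 33 with a mean of 5 RPKM. Over all genes, the shares higher and lower were 18.6% and 12.4% with a pseudocount of 0.1 RPKM, and 5.91% and 4.19% with 5 RPKM. Without a filter they were 7.12% and 5.34%, and with a mean of 5 RPKM 14.3% and 8.71%. They were 10.2% and 12.8% after centring, 12.1% and 11.0% after quantile normalization, and 11.8% and 9.54% without the GC trend. The 2 lower members became 1 with a pseudocount of 5 RPKM, with quantile normalization and without the GC trend, each time by the loss of Capza1. They became 3 without a filter, which adds Nckap1, and with a pseudocount of 0.1 RPKM, which adds Wasl (−0.71). At a 2-fold threshold, 1 of 39 members was higher and 0 were lower, and 8 and 1 of 127 pathway genes. Over all genes the shares were then 4.14% (388) higher and 3.46% (325) lower. With a pseudocount of 5 RPKM, 12 of 127 pathway genes were higher and 0 lower, beside 5.91% (554) and 4.19% (393) of all genes. The 3 lower pathway genes became 5 with a pseudocount of 0.1 RPKM, 6 after centring and 1 when genes had to average 5 RPKM, a filter under which 793 of all genes were higher and 483 lower because fewer genes were tested. Elsewhere the cause was not tested. Few reads were behind Wasl (about 162 in wild-type and 90 in Brpf1-null cells), Pfn2 (26 and 5), Nckap1 (68 and 0) and Vil1 (0 and 1). The counting intervals of Wasl (0.452 to 0.770) and Pfn2 (0.0614 to 0.542) still lay below 1.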
